A study of Homo sapiens with 4 samples.

Results

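The library described here is RNA-seq of DU145 cells that had received a control siRNA, 1 of 4 libraries of the series. It was taken from the label that names the negative control, and the other 3 libraries were used only to show how far each of its values held. DU145 is an established human line derived from a brain metastasis of a prostate carcinoma. The cells of the control library carried a siRNA labelled as negative control, so they were transfected and not untreated. Of the other libraries, 2 came from cells given siRNA against PTBP1, a splicing regulator, each with a different siRNA (siPTBP1#1 and siPTBP1#2, called replicates 1 and 2), and 1 came from cells given siRNA against DNMT3B-L, named after a DNA methyltransferase. The cells of all 4 were grown in DMEM with fetal bovine serum and received 75 nM of siRNA with a lipid reagent for 48 h. The line is 1 cell line, each siRNA has 1 library, and nothing in the sources used here says that the libraries came from separate cultures.

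Levels are given in CPM, the reads of a gene scaled to a common total for each library. The control siRNA library listed 22069 genes, of 23585 listed in any of the 4. From the steps between its values, 22511596 read pairs were recovered, and the other libraries held 22332245 to 24088975. A gene was called expressed at 1 CPM or more in the control siRNA library, where 1 CPM is about 22.5 read pairs. Described here are 830 genes in 32 lists on lineage, signalling, metabolism, the cell surface and expression control. Of these, 571 were expressed (68.8%), 90 were listed under 1 CPM and 169 were not listed. Across the protein-coding genes of GENCODE release 29, 62.2% were expressed (12411 of 19951). A gene that was not listed cannot be read as a count of 0, since no source used here gives the rule for listing genes. All genes that the control table did not list held 172 CPM together, and those of them listed for another library reached at most 0.691 CPM there.

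The prostate epithelium has a luminal layer, which makes secreted proteins such as prostate-specific antigen under control of androgen, and a basal layer, marked by the keratins KRT5 and KRT14 and the transcription factor TP63. Keratins and vimentin are proteins of intermediate filaments: KRT8 and KRT18 pair with each other in simple epithelia, and VIM is typical of mesenchymal cells, although many carcinoma lines also make it. Lines that grow without androgen depend on other inputs, among them receptor tyrosine kinases, cytokine receptors and the glucocorticoid receptor.

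Next, 4 markers named for the line were read. Their presence above 1 CPM cannot tell DU145 from another epithelial line. KRT8 had 1444 CPM in the control siRNA library, against 1264 and 656 CPM with PTBP1 siRNA and 1209 CPM with DNMT3B-L siRNA. KRT18, its partner, had 259 CPM, against 276 and 169 CPM with PTBP1 siRNA and 254 CPM with DNMT3B-L siRNA. EGFR, the receptor of epidermal growth factor, had 160.3 CPM, against 166 and 133 CPM with PTBP1 siRNA and 117 CPM with DNMT3B-L siRNA. VIM had 350.2 CPM, against 423 and 302 CPM with PTBP1 siRNA and 246 CPM with DNMT3B-L siRNA. All 4 markers were thus well above 1 CPM in every library. Of 20 markers of fibroblasts, endothelium, blood cells, hepatocytes and muscle, 2 were expressed, 8 were listed under 1 CPM and 10 were not listed. Their summed level was 21.3 CPM in the control siRNA library, against 30.6 and 21.9 CPM with PTBP1 siRNA and 20.2 CPM with DNMT3B-L siRNA. COL1A1, a collagen chain of fibroblasts, made up most of it at 16.1 CPM, against 26.98 and 18.9 CPM with PTBP1 siRNA and 18.4 CPM with DNMT3B-L siRNA, while COL1A2, DCN, LUM, the leukocyte marker PTPRC, ALB and the globins HBB and HBA1 were not listed. DES, desmin of muscle, had 1.95 CPM, and PECAM1, an endothelial adhesion molecule, had 0.444 CPM. In RNA from a bulk culture, fewer cells that express a gene and less RNA per cell cannot be told apart.

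The siRNA targets were read at the level of genes and were lowest in the libraries labelled for them. PTBP1 had 928 CPM in the control siRNA library, against 268 and 135 CPM with PTBP1 siRNA and 982 CPM with DNMT3B-L siRNA. The gene DNMT3B had 9.77 CPM, against 8.43 and 13.1 CPM with PTBP1 siRNA and 5.46 CPM with DNMT3B-L siRNA, and its long form was not counted on its own. Genes of the mitochondrial genome took 8.98% of reads in the control siRNA library, against 9.20% and 9.83% with PTBP1 siRNA and 8.47% with DNMT3B-L siRNA.

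**Figure D1:**
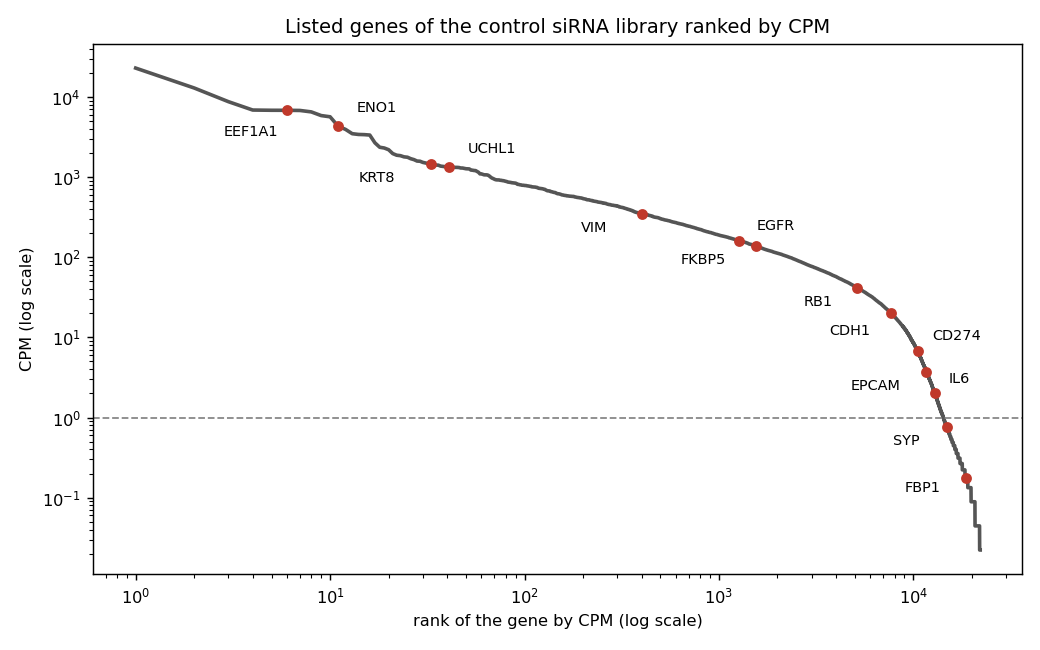
Genes listed for the control siRNA library in order of CPM, with rank (x axis) and CPM (y axis) on log scales. The dashed line is the limit of 1 CPM, passed by 14247 genes, and red points mark genes named in the text, from EEF1A1 at 6810.4 CPM to FBP1 at 0.178 CPM.

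The control siRNA library was spread over about 6 orders of magnitude in CPM. Of its 22069 listed genes, 14247 were expressed, 9627 had 10 CPM or more, 2301 had 100 CPM or more and 66 had 1000 CPM or more. The median expressed gene had 23.7 CPM. The 10 highest genes held 8.98% of all reads, the 100 highest held 21.3% and the 1000 highest held 51.5%. Genes of the mitochondrial genome filled 9 of the first 10 ranks, led by MT-CO1, a subunit of cytochrome c oxidase, at 22912 CPM. EEF1A1, the elongation factor that brings tRNA to the ribosome, was the exception at rank 6 with 6810.4 CPM. MT-RNR2, the large mitochondrial rRNA, had 8726 CPM, against 16723 and 7706 CPM with PTBP1 siRNA and 7479.5 CPM with DNMT3B-L siRNA, which makes it the least even of the 15 highest genes.

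Because CPM grows with the length of a gene, genes were compared with each other as CPM per kilobase of merged exons (CPM/kb). On that scale the 5 highest protein-coding genes of the nucleus were EEF1A1 (1145 CPM/kb), the chaperone HSP90AB1 (1122 CPM/kb), the ribosomal gene RPL8 (1067 CPM/kb), the actin-binding TMSB10 (1008 CPM/kb) and the actin gene ACTB (962 CPM/kb). The next were the glycolytic genes GAPDH (898 CPM/kb) and ENO1 (818 CPM/kb), with EEF2, ACTG1, RPL41 and RPS2 among them. YBX1, the linker histone HIST1H1C, the ferritin light chain FTL and S100A6 completed the first 15, from 697 to 587 CPM/kb. UCHL1, a deubiquitinating enzyme of neurons and neuroendocrine cells, followed at rank 16 with 584 CPM/kb. Genes with many processed copies in the genome, such as EEF1A1, GAPDH and the ribosomal protein genes, share reads with those copies, so their levels are uncertain beyond counting error.

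**Figure D2:**
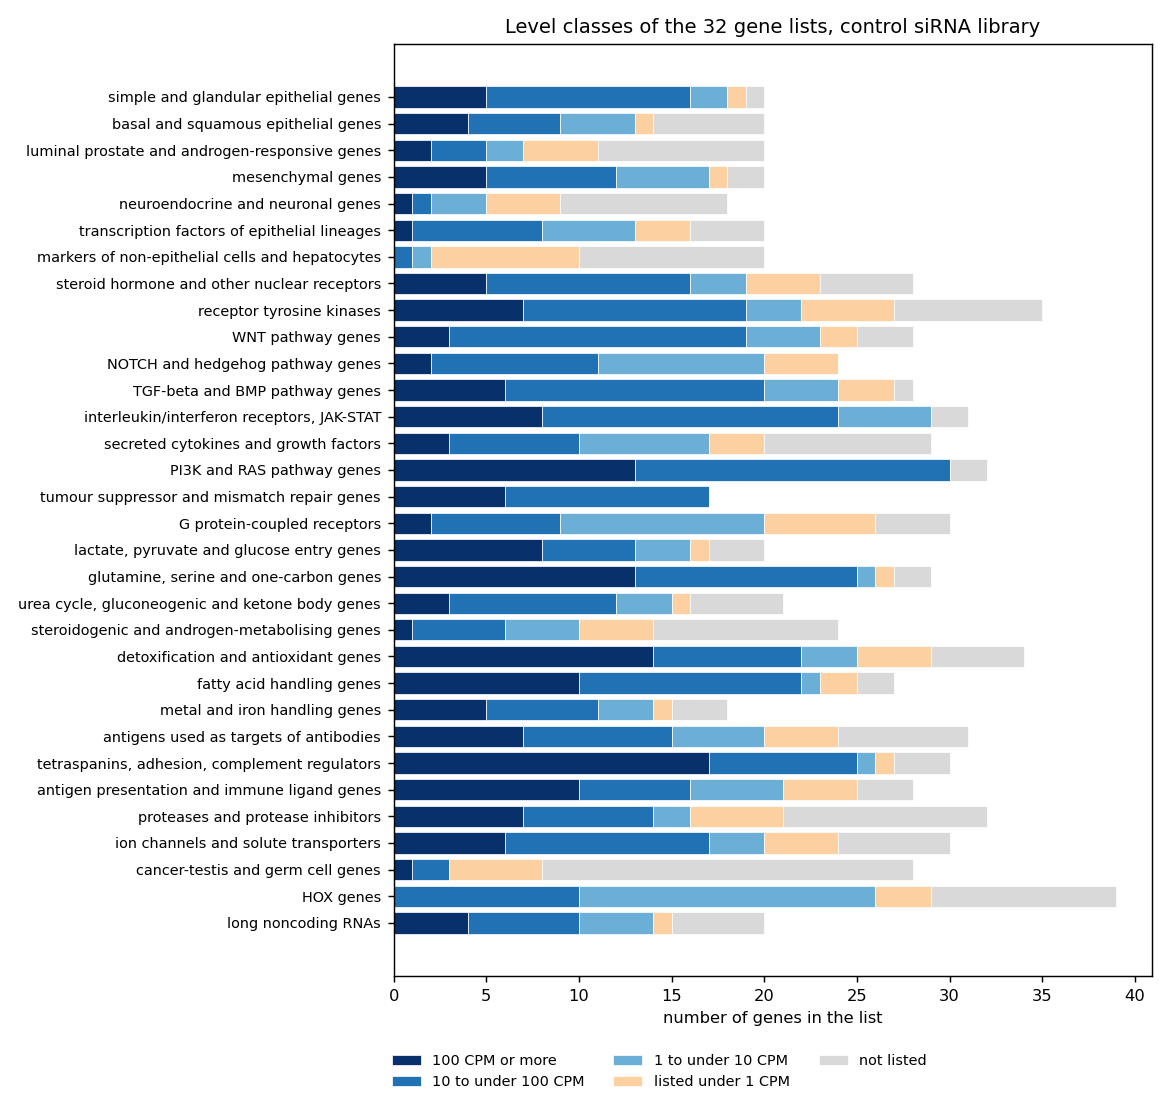
Number of genes of each list (x axis) in 5 classes of CPM in the control siRNA library, from 100 CPM or more (dark blue) to not listed (grey). The 20 luminal prostate and androgen-responsive genes had 7 expressed members, against 18 of the 20 simple and glandular epithelial genes.

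Simple epithelial genes had the largest expressed share of the lineage lists, 18 of 20. In what follows, the widest range of a list, the highest over the lowest of the 4 libraries, refers to its members at 10 CPM or more in the control siRNA library. KRT8 ranked 33 of all listed genes by CPM (95% interval from the read pairs, counting error only, 1429 to 1460.0 CPM). On the scale per kilobase the keratins stood in the order KRT8 (209.9 CPM/kb), KRT7 (132), KRT19 (119.8) and KRT18 (80.5). KRT7, a keratin of ducts, had 538 CPM, against 583 and 475 CPM with PTBP1 siRNA and 585 CPM with DNMT3B-L siRNA. KRT19 had 279.9 CPM, against 149 and 108 CPM with PTBP1 siRNA and 247 CPM with DNMT3B-L siRNA, so its control value stood above all 3 others. Genes of tight junctions stood lower per kilobase, TJP1, a scaffold, at 12.8 CPM/kb and OCLN, a strand protein, at 3.99 CPM/kb. OCLN had 26.96 CPM, against 30.1 and 9.11 CPM with PTBP1 siRNA and 40.97 CPM with DNMT3B-L siRNA, the widest range of the list. CDH1, the adhesion molecule of epithelial cell contacts, had 19.9 CPM, against 19.97 and 6.43 CPM with PTBP1 siRNA and 12.5 CPM with DNMT3B-L siRNA. The control value of CDH1 lay level with PTBP1 siRNA replicate 1 and above the other pair. EPCAM, a surface molecule of simple epithelia, had only 3.73 CPM (95% interval 2.98 to 4.62), against 3.69 and 2.24 CPM with PTBP1 siRNA and 11.6 CPM with DNMT3B-L siRNA. ESRP1 and ESRP2 are splicing regulators of epithelial cells. ESRP2 was expressed at 21.99 CPM, while ESRP1 had 0.933 CPM (95% interval 0.577 to 1.43), an interval that includes the limit of 1 CPM. GRHL2, a transcription factor that maintains epithelial genes, was not listed.

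Mesenchymal genes were expressed beside them, with 17 of 20 at 1 CPM or more. AXL, a receptor tyrosine kinase common in mesenchymal carcinoma cells, had 798 CPM, against 774 and 769 CPM with PTBP1 siRNA and 620.2 CPM with DNMT3B-L siRNA. TGFBI, a matrix protein induced by TGF-beta, had 566 CPM, against 635 and 481 CPM with PTBP1 siRNA and 475 CPM with DNMT3B-L siRNA. CD44, the hyaluronan receptor, had 261 CPM, against 460.5 and 174 CPM with PTBP1 siRNA and 172 CPM with DNMT3B-L siRNA. VIM stood at 67.9 CPM/kb, under KRT18 at 80.5 and KRT8 at 209.9 CPM/kb. Per kilobase of the longest transcript the order of VIM and KRT18 turned round, at 131 CPM/kb for VIM and 124 CPM/kb for KRT18. Of the transcription factors that repress epithelial genes, ZEB1 had 24.5 CPM, TWIST2 20.2 CPM and SNAI1 11.5 CPM. SNAI2 had 11.1 CPM and ZEB2 had 6.49 CPM, while TWIST1 was not listed. TAGLN, an actin-binding protein of smooth muscle, had 49.2 CPM and CTGF, a matricellular protein, 22.03 CPM. FN1, fibronectin, had 7.51 CPM, SPARC had 0.133 CPM, and CDH2, the cadherin that often replaces CDH1, was not listed. CYR61, a matricellular target of mechanical signals, had 245 CPM, against 334 and 356 CPM with PTBP1 siRNA and 422 CPM with DNMT3B-L siRNA. S100A4 had the widest range of the list, at 46.8 CPM against 73.1 and 29.5 CPM with PTBP1 siRNA and 23.7 CPM with DNMT3B-L siRNA.

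Of 20 genes of basal and squamous epithelium 13 were expressed. KRT5, KRT14, KRT6A, KRT13, TP63 and DSG3 were not listed, KRT17 had 0.0888 CPM, and the keratins KRT16 and KRT15 were just over the limit at 1.73 and 1.42 CPM. LAMB3 and LAMA3 encode chains of a laminin of the basement membrane and had 472 and 46.6 CPM. ITGA6 and ITGB4 encode the integrin that binds this laminin and had 94.4 and 127 CPM. DST, which holds keratin filaments at the basement membrane, had 362 CPM, against 449 and 305 CPM with PTBP1 siRNA and 279.8 CPM with DNMT3B-L siRNA. ITGB4 was uneven, at 127 CPM in the control siRNA library against 135 and 46.8 CPM with PTBP1 siRNA and 63.4 CPM with DNMT3B-L siRNA. SFN, the 14-3-3 sigma protein of epithelia, had 296 CPM, against 164 and 259.8 CPM with PTBP1 siRNA and 303 CPM with DNMT3B-L siRNA. DSC3, a desmosomal cadherin, had 36.96 CPM, against 27.2 and 13.5 CPM with PTBP1 siRNA and 39.9 CPM with DNMT3B-L siRNA, the widest range of the list.

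Of 20 luminal prostate and androgen-responsive genes 7 were expressed, 4 were listed under 1 CPM and 9 were not listed. The androgen-driven genes KLK2, KLK3 (prostate-specific antigen) and TMPRSS2 were not listed for the control siRNA library or any other. FOLH1 (prostate-specific membrane antigen), ACPP (prostatic acid phosphatase), HPN, the prostate homeobox gene HOXB13 and the prostate RNA PCA3 were not listed either. The expressed members included NDRG1, FKBP5, PMEPA1, SLC45A3, STEAP2 and STEAP1. NDRG1, a gene that responds to hypoxia as well as to androgen, had 476 CPM, against 244 and 422 CPM with PTBP1 siRNA and 439 CPM with DNMT3B-L siRNA. FKBP5, a co-chaperone of steroid receptors that glucocorticoids also induce, had 138 CPM, against 172 and 123 CPM with PTBP1 siRNA and 141 CPM with DNMT3B-L siRNA. NDRG1 and FKBP5 were thus both expressed in all 4 libraries.

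The promoters of KLK3 and KLK2 are shown because both genes depend on androgen and neither was listed. They are the 250 bases before the RefSeq transcription start on the plus strand of chromosome 19 of GRCh38.p14, KLK3 at chr19:50854665-50854914 and KLK2 at chr19:50873189-50873438, written 5′ to 3′. Capitals mark the 14 letters GAACAGCAAGTGCT, which lie in the androgen response element known in both promoters.
KLK3: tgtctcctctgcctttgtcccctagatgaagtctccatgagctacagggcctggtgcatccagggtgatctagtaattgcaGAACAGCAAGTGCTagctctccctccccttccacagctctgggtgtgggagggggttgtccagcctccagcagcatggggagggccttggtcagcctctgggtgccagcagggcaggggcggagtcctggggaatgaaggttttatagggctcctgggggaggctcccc
KLK2: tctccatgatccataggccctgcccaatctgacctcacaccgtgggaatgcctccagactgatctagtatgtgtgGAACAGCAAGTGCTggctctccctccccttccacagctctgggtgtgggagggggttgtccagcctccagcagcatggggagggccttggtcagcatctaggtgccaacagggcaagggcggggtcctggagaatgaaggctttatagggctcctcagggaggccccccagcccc
The capitals begin 169 bases before the start of KLK3 and 175 bases before that of KLK2. In a global alignment 205 bases of the 2 windows were identical, 36 were mismatched and 18 positions were gaps (85.1% identity of the positions aligned without a gap). The 14 letters were chosen from these promoters, as those after the first base of the half-site AGAACA in KLK3. Searched on both strands, they stand in 2 of 27305 RefSeq promoter windows of the same length (0.00732%), those of KLK2 and KLK3. Of the 20 genes of the luminal list, 14 had a promoter in the table. A match describes the sequence and not binding of a receptor.

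Of 18 neuroendocrine and neuronal genes 5 were expressed, and 2 had 1 CPM/kb or more, UCHL1 and ENO2. UCHL1 had 1332 CPM (95% interval 1317 to 1348), against 1101 and 1456 CPM with PTBP1 siRNA and 1168 CPM with DNMT3B-L siRNA, with a highest value 1.32 times the lowest. ENO2, the neuronal enolase, had 60.6 CPM, against 56.2 and 37.4 CPM with PTBP1 siRNA and 72.7 CPM with DNMT3B-L siRNA. NCAM1, an adhesion molecule, had 6.53 CPM, and the transcription factors ONECUT2 and FOXA2 had 5.55 and 1.82 CPM. The secretory granule genes CHGA, CHGB and SCG3, the transcription factors INSM1 and NEUROD1, and the splicing factor SRRM4 were not listed, and SYP, of synaptic vesicles, had 0.755 CPM.

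Among 20 transcription factors of epithelial lineages 13 were expressed. NKX2-1, known from lung and thyroid, had 129.9 CPM, against 121 and 141 CPM with PTBP1 siRNA and 104 CPM with DNMT3B-L siRNA, and at 41.04 CPM/kb it stood above FOXA1 at 15.5 CPM/kb. FOXA1, which opens chromatin for other factors, had 61.7 CPM, against 50.8 and 68.9 CPM with PTBP1 siRNA and 41.3 CPM with DNMT3B-L siRNA. GATA2, a zinc finger factor, had 68.1 CPM, against 67.4 and 68.1 CPM with PTBP1 siRNA and 50.1 CPM with DNMT3B-L siRNA. TFAP2A had 87.5 CPM and KLF5 had 63.7 CPM. KLF4 had 22.97 CPM, against 32.8 and 12.1 CPM with PTBP1 siRNA and 22.6 CPM with DNMT3B-L siRNA. SOX9, a factor of progenitor cells, had 9.91 CPM, against 28.02 and 9.37 CPM with PTBP1 siRNA and 10.5 CPM with DNMT3B-L siRNA. SOX2, EHF, ELF5 and CDX2 were not listed, and the liver factor HNF4A had 0.0444 CPM.

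**Figure D3:**
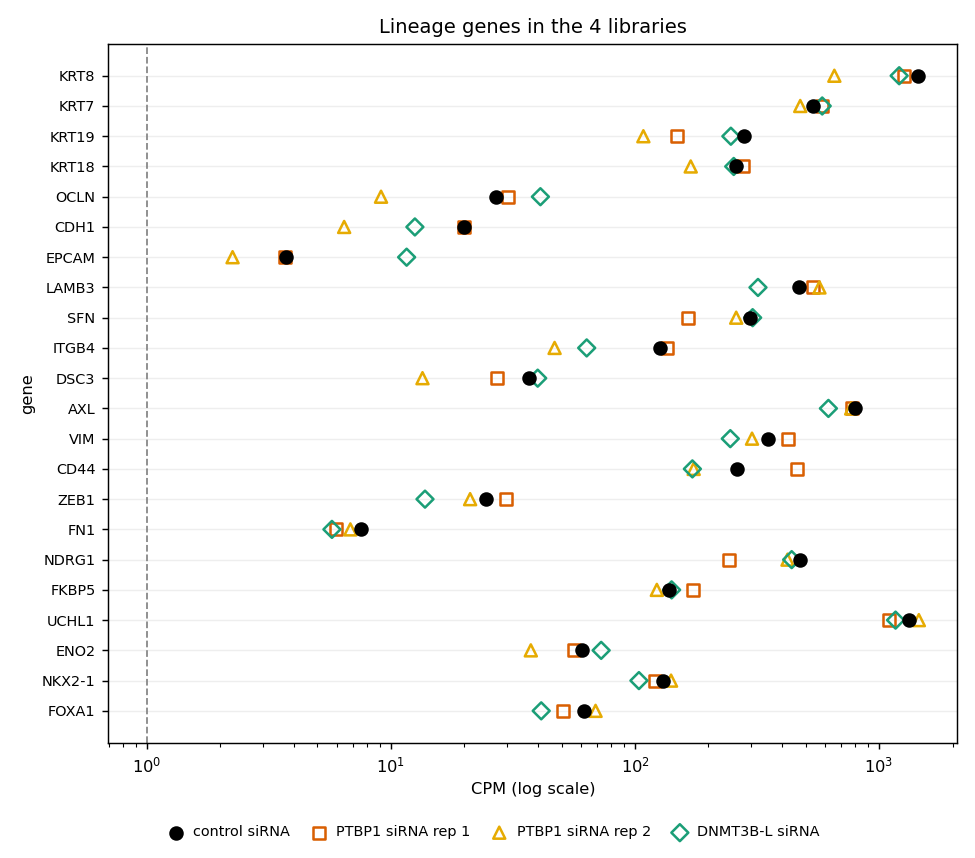
CPM (x axis, log scale) of 22 lineage genes (y axis) in the control siRNA library (filled circles), the PTBP1 siRNA libraries (squares and triangles) and the DNMT3B-L siRNA library (diamonds). KRT8, KRT7, KRT19 and KRT18 stood above 100 CPM in every library, and EPCAM had 3.73 CPM in the control siRNA library and 2.24 to 11.6 CPM in the others.

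Of 282 signalling genes 221 were expressed (78.4%). Steroid and nuclear receptors numbered 19 of 28 at 1 CPM or more. NR3C1, the glucocorticoid receptor, had 146 CPM (95% interval 141 to 151), against 185 and 140.3 CPM with PTBP1 siRNA and 122 CPM with DNMT3B-L siRNA. The receptors of estrogen stood at 0.222 CPM (ESR1) and 0.267 CPM (ESR2), and those of progesterone (PGR) and mineralocorticoids (NR3C2) were not listed. NR1H2, an oxysterol receptor, had 126 CPM, THRA, a thyroid hormone receptor, 120.3 CPM, and RXRA, a retinoid receptor and dimer partner, 111 CPM. NR4A1, an immediate early gene, had 33.5 CPM, against 35.2 and 75.1 CPM with PTBP1 siRNA and 63.8 CPM with DNMT3B-L siRNA, the widest range of the list.

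The list of receptor tyrosine kinases leaves out AXL, counted with the mesenchymal genes, which at 155 CPM/kb stood above every member of it. Of the 35 listed kinases 22 were expressed, 7 of them at 100 CPM or more. Per kilobase these 7 stood in the order EPHA2 (64.95 CPM/kb), EPHB4 (31.8), ERBB2 (28.5), PTK7 (20.5), IGF1R (18.2), DDR1 (15.6) and EGFR (12.8). Per kilobase of the longest transcript ERBB2 at 59.8 stood above EPHB4 at 40.5 CPM/kb, and DDR1 at 34.3 above IGF1R at 20.8 CPM/kb. ERBB2 had 295 CPM, against 191 and 259 CPM with PTBP1 siRNA and 233 CPM with DNMT3B-L siRNA. ERBB3, its ligand-binding partner, had 30.4 CPM, against 16.8 and 21.8 CPM with PTBP1 siRNA and 38.6 CPM with DNMT3B-L siRNA, and ERBB4 was not listed. EPHA2, an ephrin receptor, had 270.1 CPM in the control siRNA library, against 666 and 441 CPM with PTBP1 siRNA and 444 CPM with DNMT3B-L siRNA, and the control value lay below all 3 others. On the log2(CPM + 1) scale of limma its difference, control minus the mean of the others, was -0.91 (SE 0.31), and like every other gene it did not pass. IGF1R had 254 CPM, against 298 and 179 CPM with PTBP1 siRNA and 177 CPM with DNMT3B-L siRNA. MET, the receptor of hepatocyte growth factor, had 95.9 CPM, against 136 and 77.7 CPM with PTBP1 siRNA and 103 CPM with DNMT3B-L siRNA, while its ligand HGF was not listed. FGFR4 and FGFR1 had 89.5 and 85.3 CPM and FGFR2 had 0.577 CPM. KIT, FLT1, FLT3, NTRK2, NTRK3, ROS1 and EPHA4 were not listed, and RET and ALK had 0.222 and 0.178 CPM.

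Among interleukin and interferon receptors and genes of the JAK-STAT route, which carries signals from cytokine receptors to the nucleus, 29 of 31 were expressed. OSMR, the receptor of oncostatin M, had 688 CPM, against 746 and 630.2 CPM with PTBP1 siRNA and 640.2 CPM with DNMT3B-L siRNA. IL6ST, the signal chain shared by receptors of the IL-6 family, had 218 CPM, against 324 and 125 CPM with PTBP1 siRNA and 184 CPM with DNMT3B-L siRNA. LIFR, a further receptor of that family, had 64.4 CPM. STAT3, which acts downstream of IL6ST, had 452 CPM, against 424 and 403 CPM with PTBP1 siRNA and 401 CPM with DNMT3B-L siRNA, and JAK1 had 171 CPM, against 202 and 209.5 CPM with PTBP1 siRNA and 173 CPM with DNMT3B-L siRNA. IL6R, the ligand-binding chain for IL-6, had 36.9 CPM, against 39.5 and 22.7 CPM with PTBP1 siRNA and 65.6 CPM with DNMT3B-L siRNA, the widest range of the list. IL6 itself had 1.999 CPM (95% interval 1.46 to 2.67), against 2.08 and 2.03 CPM with PTBP1 siRNA and 1.16 CPM with DNMT3B-L siRNA. Per kilobase IL6ST stood at 23.5, IL6R at 5.72 and IL6 at 0.966 CPM/kb, and LIF, the ligand of LIFR, at 12.5 CPM/kb was above LIFR at 5.43 CPM/kb.

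Secreted cytokines and growth factors were expressed in 17 of 29 cases. HDGF had 724 CPM, against 958 and 916 CPM with PTBP1 siRNA and 969 CPM with DNMT3B-L siRNA. CSF1, the growth factor of macrophages, had 322 CPM, against 456 and 289 CPM with PTBP1 siRNA and 199 CPM with DNMT3B-L siRNA. VEGFA, the factor of vessel growth, had 111 CPM, against 250.2 and 135 CPM with PTBP1 siRNA and 124 CPM with DNMT3B-L siRNA, and LIF, a ligand of the IL-6 family, had 49.7 CPM, against 83.4 and 64.5 CPM with PTBP1 siRNA and 62.4 CPM with DNMT3B-L siRNA. MDK had 21.3 CPM and the neutrophil attractant CXCL8 had 7.51 CPM, against 12.9 and 11.3 CPM with PTBP1 siRNA and 9.85 CPM with DNMT3B-L siRNA. CCL5, a chemokine for lymphocytes, had 21.3 CPM, against 8.55 and 22.1 CPM with PTBP1 siRNA and 6.40 CPM with DNMT3B-L siRNA. IL1A, IL1B, TNF, CSF3, CXCL5, IGF1, FGF7 and PTN were not listed. MIF had 0.622 CPM, but 61.95% of its merged exons overlap other genes in the annotation, so its low value is uncertain. IGF2, at 4.75 CPM, has the same limit with 75.01%.

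In the WNT list 23 of 28 genes were expressed. CTNNB1, beta-catenin, which carries the signal to the nucleus, had 240.1 CPM, against 212 and 169 CPM with PTBP1 siRNA and 269 CPM with DNMT3B-L siRNA. The receptors LRP5 and FZD6 had 288 and 185 CPM, and LGR4, a receptor of R-spondins, had 95.8 CPM. DKK1, a secreted inhibitor that binds LRP5 and LRP6, had 87.4 CPM, against 103 and 70.9 CPM with PTBP1 siRNA and 109 CPM with DNMT3B-L siRNA. AXIN2, a standard target of the pathway, had 5.33 CPM, and LEF1, LGR5 and SFRP1 were not listed. DKK3 had the widest range, at 15.8 CPM against 18.6 and 7.04 CPM with PTBP1 siRNA and 11.4 CPM with DNMT3B-L siRNA.

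NOTCH and hedgehog genes were expressed in 20 of 24 cases. NOTCH3 had 359.8 CPM, against 353 and 180.0 CPM with PTBP1 siRNA and 195 CPM with DNMT3B-L siRNA, and NOTCH2 had 150.3 CPM, against 158 and 149.6 CPM with PTBP1 siRNA and 143 CPM with DNMT3B-L siRNA. Of the ligands, JAG2 had 95.8 CPM and JAG1 had 6.71 CPM, against 18.5 and 3.97 CPM with PTBP1 siRNA and 6.05 CPM with DNMT3B-L siRNA. NUMB, an inhibitor of NOTCH receptors, had 90.8 CPM. The targets HES1 and HEY1 had 3.15 and 1.42 CPM. The hedgehog receptors SMO and PTCH1 had 62.6 and 48.1 CPM, GLI1 had 5.60 CPM and the ligand SHH 1.95 CPM.

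Of 28 TGF-beta and BMP genes 24 were expressed. The ligand TGFB1 had 273 CPM, against 357 and 202 CPM with PTBP1 siRNA and 163 CPM with DNMT3B-L siRNA, and the receptor TGFBR2 had 159 CPM, against 214 and 184 CPM with PTBP1 siRNA and 133 CPM with DNMT3B-L siRNA. TGFB2 had 27.6 CPM in the control siRNA library, against 54.2 and 30.3 CPM with PTBP1 siRNA and 13.7 CPM with DNMT3B-L siRNA, so the control value lay inside the range of the others. ID3 and ID1, targets of BMP signals, had 257 and 115 CPM, and the signal carriers SMAD2 and SMAD3 had 148 and 147 CPM. GDF15, a secreted stress factor, had 2.09 CPM, against 3.15 and 3.41 CPM with PTBP1 siRNA and 3.40 CPM with DNMT3B-L siRNA. BMP2 was not listed and INHBA had 0.133 CPM.

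PI3K and RAS pathway genes were expressed in 30 of 32 cases, all 30 at 10 CPM or more. SHC1, the adaptor between receptors and RAS, had 811 CPM, against 669.9 and 822 CPM with PTBP1 siRNA and 626 CPM with DNMT3B-L siRNA. MAP2K2 had 345 CPM, AKT2 289 CPM and the adaptor GRB2 242 CPM. STK11, the kinase upstream of AMPK, had 72.9 CPM, against 95.8 and 95.5 CPM with PTBP1 siRNA and 92.7 CPM with DNMT3B-L siRNA. MTOR was the least even, at 141 CPM against 75.3 and 128 CPM with PTBP1 siRNA and 156 CPM with DNMT3B-L siRNA. The others were PIK3CG, of white blood cells, and PIK3R2, neither of which was listed. For PIK3R2, 87.25% of the merged exons overlap another gene, and its absence from the table is uncertain for that reason.

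All 17 tumour suppressor and mismatch repair genes of the list were expressed, each at 10 CPM or more. CDKN2A, the locus of p16 and ARF, had 423 CPM, against 415 and 376 CPM with PTBP1 siRNA and 397 CPM with DNMT3B-L siRNA. RB1, which restrains entry into S phase, had 41.5 CPM, against 42.9 and 35.9 CPM with PTBP1 siRNA and 36.4 CPM with DNMT3B-L siRNA. The chromatin genes KMT2D and ARID1A had 333 and 189 CPM. Per kilobase CDKN2A stood at 97.7 CPM/kb and RB1 at 6.44 CPM/kb. CDKN1B, an inhibitor of cyclin-dependent kinases, had the widest range of the list and still kept under 2-fold, at 55.6 CPM against 74.3 and 88.02 CPM with PTBP1 siRNA and 48.5 CPM with DNMT3B-L siRNA. These levels do not show the sequence or the amount of any protein.

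Of 30 G protein-coupled receptors 20 were expressed, 2 of them at 100 CPM or more. GPRC5A, an orphan receptor induced by retinoic acid, had 611 CPM, against 624 and 323 CPM with PTBP1 siRNA and 517 CPM with DNMT3B-L siRNA. CD97 (now ADGRE5), an adhesion receptor, had 159 CPM. GPR56 (now ADGRG1), of the same class, had 67.3 CPM, against 19.8 and 49.1 CPM with PTBP1 siRNA and 21.8 CPM with DNMT3B-L siRNA. F2R, the thrombin receptor, had 24.9 CPM, against 27.6 and 17.1 CPM with PTBP1 siRNA and 16.3 CPM with DNMT3B-L siRNA, and F2RL1, which trypsin activates, had 8.31 CPM. CXCR4 had 3.55 CPM and the neurotensin receptor NTSR1 0.178 CPM, while CXCR2, CCR7, EDNRA and EDNRB were not listed.

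**Figure D4:**
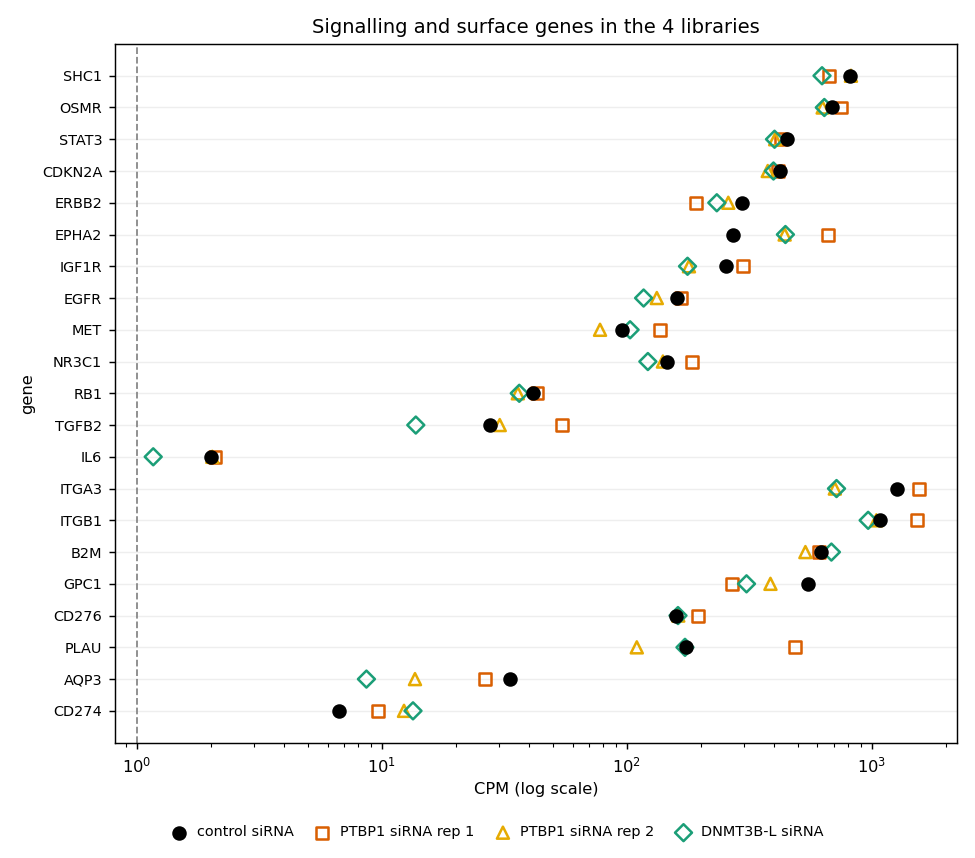
CPM (x axis, log scale) of 21 signalling and surface genes (y axis) in the control siRNA library (filled circles), the PTBP1 siRNA libraries (squares and triangles) and the DNMT3B-L siRNA library (diamonds). STAT3 and CDKN2A lay close together in all 4 libraries, while PLAU had 174 CPM in the control siRNA library and 109.8 to 487 CPM in the others.

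Of 173 metabolic genes 129 were expressed (74.6%). GAPDH and ENO1, named above, were the highest of them per kilobase, and of 20 genes for glucose and lactate 16 were expressed. ENO1, enolase, had 4316 CPM, against 4662 and 3755 CPM with PTBP1 siRNA and 3853 CPM with DNMT3B-L siRNA, and PKM, pyruvate kinase, had 3938 CPM, against 3963 and 2761 CPM with PTBP1 siRNA and 2399 CPM with DNMT3B-L siRNA. GAPDH had 2678 CPM, against 2595 and 2546 CPM with PTBP1 siRNA and 1854 CPM with DNMT3B-L siRNA. LDHA, the lactate dehydrogenase subunit that favours lactate, had 1177 CPM, against 1359 and 1137 CPM with PTBP1 siRNA and 1299 CPM with DNMT3B-L siRNA. LDHB, the other subunit, had 536 CPM, against 606 and 598 CPM with PTBP1 siRNA and 667 CPM with DNMT3B-L siRNA. Per kilobase LDHA stood at 189.5 and LDHB at 179.6 CPM/kb. SLC16A3, a lactate exporter, had 812 CPM, against 887 and 736 CPM with PTBP1 siRNA and 788 CPM with DNMT3B-L siRNA, and SLC16A1, which also imports lactate, had 99.1 CPM, against 138 and 77.8 CPM with PTBP1 siRNA and 105 CPM with DNMT3B-L siRNA. The glucose transporter SLC2A1 had 384 CPM, against 687 and 451 CPM with PTBP1 siRNA and 447 CPM with DNMT3B-L siRNA, the widest range among the members at 10 CPM or more. HK1 had 393 CPM and HK2 24.9 CPM. The liver kinase PKLR, G6PC and the testis subunit LDHC were not listed.

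Genes for glutamine, serine and one-carbon units were expressed in 26 of 29 cases. SLC7A5, the transporter of large neutral amino acids, had 674 CPM, against 683 and 828 CPM with PTBP1 siRNA and 875 CPM with DNMT3B-L siRNA, and its partner chain SLC3A2 had 293 CPM. GLS2, which releases ammonia from glutamine, had 0.666 CPM, but 82.76% of its merged exons overlap other genes. GLUL, which makes glutamine, had 175 CPM, against 138 and 164 CPM with PTBP1 siRNA and 166 CPM with DNMT3B-L siRNA, and the glutamine importer SLC1A5 had 146 CPM, against 123 and 202 CPM with PTBP1 siRNA and 162 CPM with DNMT3B-L siRNA. PHGDH, the first enzyme of serine synthesis, had 182 CPM, against 103 and 238 CPM with PTBP1 siRNA and 224 CPM with DNMT3B-L siRNA, and SHMT2, a mitochondrial enzyme that draws one-carbon units from serine, had 337 CPM. SLC7A11, the cystine importer, had 72.5 CPM, against 37.9 and 101 CPM with PTBP1 siRNA and 47.9 CPM with DNMT3B-L siRNA. MTAP, often lost together with CDKN2A in tumours, had 40.3 CPM, against 36.5 and 32.9 CPM with PTBP1 siRNA and 66.9 CPM with DNMT3B-L siRNA. ASNS, asparagine synthetase, was uneven at 38.4 CPM against 23.9 and 76.6 CPM with PTBP1 siRNA and 64.9 CPM with DNMT3B-L siRNA, and the control value lay inside the range of the others.

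The urea cycle, gluconeogenesis and ketone bodies had 15 of 21 genes expressed. ASS1, argininosuccinate synthase, had 54.7 CPM, against 48.9 and 27.5 CPM with PTBP1 siRNA and 26.8 CPM with DNMT3B-L siRNA, and ASL, the next enzyme, had 30.9 CPM. The liver enzymes CPS1, OTC, ARG1 and PCK1 were not listed, and FBP1, of gluconeogenesis, had 0.178 CPM. PCK2, the mitochondrial relative of PCK1, had 21.6 CPM. The enzymes of polyamine synthesis ODC1, SRM and SMS had 145, 121 and 90.98 CPM, and OAT had 144 CPM. The control value of ODC1 lay below all others, at 145 CPM against 293 and 246 CPM with PTBP1 siRNA and 328 CPM with DNMT3B-L siRNA.

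Steroidogenic and androgen-metabolising genes were expressed in 10 of 24 cases. SRD5A1, a steroid 5-alpha-reductase, had 53.6 CPM, against 77.96 and 45.4 CPM with PTBP1 siRNA and 29.1 CPM with DNMT3B-L siRNA, while SRD5A2, the enzyme typical of normal prostate, was not listed. HSD17B4 and HSD17B10, which also serve fatty acid oxidation, had 103 and 65.9 CPM. AKR1C3, which makes testosterone from androstenedione, had 21.8 CPM, against 14.03 and 21.5 CPM with PTBP1 siRNA and 12.4 CPM with DNMT3B-L siRNA. AKR1C1 and AKR1C2 had 5.38 and 2.98 CPM, and as near-identical copies the members of this family can exchange reads. CYP17A1, the gate enzyme of androgen synthesis, had 0.133 CPM (95% interval 0.0275 to 0.389). STAR, HSD3B1, HSD3B2 and the androgen-conjugating UGT2B7, UGT2B15 and UGT2B17 were not listed.

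Detoxification and antioxidant genes held 25 expressed members of 34. TXNRD1, thioredoxin reductase, had 1874 CPM, against 2486 and 1556 CPM with PTBP1 siRNA and 1411 CPM with DNMT3B-L siRNA. NQO1, a quinone reductase, had 521 CPM, against 615 and 579 CPM with PTBP1 siRNA and 415 CPM with DNMT3B-L siRNA. PRDX1 had 439.6 CPM and GPX4, which removes lipid peroxides, 394 CPM. GSTP1, a glutathione transferase whose promoter is methylated in most prostate cancers, had 116 CPM (95% interval 111 to 120.2), against 111 and 124 CPM with PTBP1 siRNA and 109.6 CPM with DNMT3B-L siRNA. CYP1B1, an enzyme induced through the aryl hydrocarbon receptor, had 38.6 CPM, against 69.9 and 36.6 CPM with PTBP1 siRNA and 21.05 CPM with DNMT3B-L siRNA, the widest range of the list. ALDH1A1, ALDH3A1, GSTA1 and CYP3A4 were not listed.

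Fatty acid genes held 23 expressed members of 27. SCD, the desaturase that makes oleate, had 2196 CPM, against 1651 and 1164 CPM with PTBP1 siRNA and 1347 CPM with DNMT3B-L siRNA, and ranked 20 of all genes by CPM. FASN, fatty acid synthase, had 843 CPM, against 682 and 634 CPM with PTBP1 siRNA and 757 CPM with DNMT3B-L siRNA, and ACLY, which supplies its acetyl units, had 583 CPM, against 585 and 527 CPM with PTBP1 siRNA and 575 CPM with DNMT3B-L siRNA. The control values of SCD and FASN were above those of the other 3 libraries, and that of ACLY was inside their range. ACADVL, of mitochondrial oxidation, had 557 CPM. AMACR, a racemase used as a tissue marker of prostate cancer, had 1.73 CPM, against 1.08 and 1.25 CPM with PTBP1 siRNA and 1.66 CPM with DNMT3B-L siRNA, with 64.8% of its merged exons overlapped by other genes. FABP5 had 22.5 CPM, PLIN2, of lipid droplets, had 37.1 CPM against 76.8 and 35.1 CPM with PTBP1 siRNA and 48.1 CPM with DNMT3B-L siRNA, and LPL and FABP4 were not listed.

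Of 18 genes for iron and other metals 14 were expressed. FTH1, ferritin heavy chain, had 910.4 CPM, against 285 and 749.9 CPM with PTBP1 siRNA and 689.9 CPM with DNMT3B-L siRNA. It stood apart with PTBP1 siRNA replicate 1, its lowest library, and 62.41% of its merged exons overlap BEST1 in the annotation. FTL, the light chain, was even, at 525 CPM against 538 and 503 CPM with PTBP1 siRNA and 434 CPM with DNMT3B-L siRNA. TFRC, the transferrin receptor, had 486 CPM, against 587 and 417 CPM with PTBP1 siRNA and 665 CPM with DNMT3B-L siRNA. SLC40A1, the iron exporter, had 4.93 CPM. The zinc importer SLC39A1 had 574 CPM with 69.1% of its exons overlapped, and SLC39A6, a further zinc importer, had 215 CPM.

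Surface genes were expressed in 103 of 151 cases (68.2%). Among 31 antigens used as targets of antibodies 20 were expressed. GPC1, a heparan sulfate proteoglycan, had 550.3 CPM, against 268 and 386 CPM with PTBP1 siRNA and 308 CPM with DNMT3B-L siRNA. MCAM, an adhesion molecule of vessels and melanoma, had 521 CPM, against 371 and 297 CPM with PTBP1 siRNA and 377 CPM with DNMT3B-L siRNA, and LY6E had 353 CPM, against 347 and 369.8 CPM with PTBP1 siRNA and 269.7 CPM with DNMT3B-L siRNA. CD276 (B7-H3) had 158 CPM, against 195 and 162 CPM with PTBP1 siRNA and 162 CPM with DNMT3B-L siRNA. PVR, the poliovirus receptor, had 151 CPM, against 139 and 107 CPM with PTBP1 siRNA and 153 CPM with DNMT3B-L siRNA, TPBG had 73.2 CPM, against 66.3 and 79.6 CPM with PTBP1 siRNA and 74.1 CPM with DNMT3B-L siRNA, and CD47, which restrains phagocytes, had 57.5 CPM, against 59.9 and 60.5 CPM with PTBP1 siRNA and 59.2 CPM with DNMT3B-L siRNA. ALCAM had 32.4 CPM and F3, tissue factor, 12.8 CPM.

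Other antigens of this list stood under 10 CPM or were not listed, among them the following. PSCA, prostate stem cell antigen, had 4.89 CPM, against 3.65 and 3.15 CPM with PTBP1 siRNA and 3.85 CPM with DNMT3B-L siRNA. MSLN, NECTIN4 and SLC44A4 had 0.0888, 0.178 and 0.0444 CPM, and CEACAM5, CEACAM6, CLDN6, GPC3, DLK1 and CA9 were not listed.

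Tetraspanins, adhesion molecules and complement regulators were the list with the most members at 100 CPM or more, 17 of 30. ITGA3 and ITGB1 pair as a laminin receptor. ITGA3 had 1264 CPM, against 1561 and 707 CPM with PTBP1 siRNA and 718 CPM with DNMT3B-L siRNA, and ITGB1 had 1079.7 CPM, against 1528 and 1044 CPM with PTBP1 siRNA and 966 CPM with DNMT3B-L siRNA. BSG (basigin), which chaperones lactate transporters to the membrane, had 1096 CPM, against 1258 and 1145 CPM with PTBP1 siRNA and 1091 CPM with DNMT3B-L siRNA. DAG1, dystroglycan, had 755 CPM. The tetraspanin CD63 had 377 CPM, against 362 and 399.6 CPM with PTBP1 siRNA and 305 CPM with DNMT3B-L siRNA, and CD9, CD151, CD81 and CD82 had 156, 155, 153 and 24.8 CPM. The complement regulators CD59 and CD55 had 309 and 97.99 CPM, against 196 to 306 and 95.3 to 121 CPM in the other 3 libraries. NT5E (CD73), which makes adenosine, had 47.00 CPM, against 59.3 and 67.1 CPM with PTBP1 siRNA and 36.9 CPM with DNMT3B-L siRNA. ITGA2, a collagen receptor chain, was the least even, at 53.9 CPM against 118 and 78.01 CPM with PTBP1 siRNA and 31.4 CPM with DNMT3B-L siRNA. PROM1 (CD133), VCAM1 and TSPAN8 were not listed, and THY1 had 0.0444 CPM.

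Antigen presentation and immune ligand genes held 21 expressed members of 28. B2M, the light chain of class I molecules, had 620.1 CPM, against 607 and 536 CPM with PTBP1 siRNA and 684 CPM with DNMT3B-L siRNA. The heavy chains HLA-C and HLA-B had 345 and 327 CPM, and reads of these alike and variable genes can be lost or exchanged when they are aligned to 1 reference sequence. TAPBP, which loads peptides, had 589 CPM, and TAP1, which transports them, had 164 CPM. Class II genes were near the lower limit, with HLA-DRA at 0.133 CPM and their regulator CIITA at 1.55 CPM, although CD74, the invariant chain, had 14.5 CPM, against 13.5 and 15.8 CPM with PTBP1 siRNA and 15.8 CPM with DNMT3B-L siRNA. CD274 (PD-L1) had 6.71 CPM, against 9.67 and 12.3 CPM with PTBP1 siRNA and 13.4 CPM with DNMT3B-L siRNA, so the control siRNA library was the lowest. PDCD1LG2 had 0.267 CPM, and CD80, CD86 and IDO1 were not listed. The death receptor FAS had 8.40 CPM, against 8.59 and 4.23 CPM with PTBP1 siRNA and 11.5 CPM with DNMT3B-L siRNA, and TNFRSF12A, the receptor of TWEAK, had 144 CPM, against 212 and 203 CPM with PTBP1 siRNA and 206 CPM with DNMT3B-L siRNA. TNFRSF1A, the main receptor of tumour necrosis factor, had 356 CPM. MICB, a ligand of natural killer cells, had 84.1 CPM, against 103 and 103 CPM with PTBP1 siRNA and 157 CPM with DNMT3B-L siRNA.

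Proteases and their inhibitors were the surface list with the smallest expressed share, 16 of 32. TIMP2, an inhibitor of matrix metalloproteinases, had 423 CPM, against 241 and 346 CPM with PTBP1 siRNA and 337 CPM with DNMT3B-L siRNA, and the lysosomal cathepsins CTSB and CTSL had 345 and 233 CPM. PLAU, urokinase, had 174 CPM, against 487 and 109.8 CPM with PTBP1 siRNA and 173 CPM with DNMT3B-L siRNA. PTBP1 siRNA replicate 1 stood apart, and the control siRNA library lay level with DNMT3B-L siRNA. MMP14, a membrane-bound metalloproteinase, had 75.2 CPM, against 94.1 and 34.5 CPM with PTBP1 siRNA and 70.6 CPM with DNMT3B-L siRNA, and TIMP1 had 40.1 CPM, against 18.02 and 42.00 CPM with PTBP1 siRNA and 41.3 CPM with DNMT3B-L siRNA. The secreted metalloproteinases MMP1, MMP9 and MMP10 had 0.355, 0.400 and 0.0888 CPM, and MMP2, MMP3 and MMP7 were not listed. The kallikreins KLK5, KLK6, KLK7, KLK10 and KLK11 and the inhibitor SERPINB5 (maspin) were not listed.

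Of 30 channels and transporters 20 were expressed. SLC38A2, an amino acid transporter, had 501 CPM, against 599.7 and 526 CPM with PTBP1 siRNA and 316 CPM with DNMT3B-L siRNA. The taurine transporter SLC6A6 had 245 CPM. Of the pumps known for drug efflux, ABCC1 had 201 CPM, against 226 and 176 CPM with PTBP1 siRNA and 150.4 CPM with DNMT3B-L siRNA, ABCG2 had 5.997 CPM, against 4.28 and 3.32 CPM with PTBP1 siRNA and 4.30 CPM with DNMT3B-L siRNA, and ABCB1 was not listed. AQP3, a channel for water and glycerol, had 33.2 CPM, against 26.4 and 13.6 CPM with PTBP1 siRNA and 8.64 CPM with DNMT3B-L siRNA, and the control value lay above all 3 others. SLC12A2, a sodium, potassium and chloride importer, had 29.1 CPM, against 32.5 and 25.1 CPM with PTBP1 siRNA and 33.3 CPM with DNMT3B-L siRNA. The calcium channel TRPV6 and the chloride channel CFTR were not listed, and the chloride channel ANO1 had 0.977 CPM (95% interval 0.612 to 1.48).

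Genes of expression control gave 43 expressed of 86. Cancer-testis genes are silent in most adult tissues other than testis, and 3 of 28 such and other germ cell genes were expressed. PRAME had 30.9 CPM, against 37.98 and 39.2 CPM with PTBP1 siRNA and 30.8 CPM with DNMT3B-L siRNA. The other expressed members, MAGED1 with 197 CPM, against 124 and 217 CPM with PTBP1 siRNA and 163 CPM with DNMT3B-L siRNA, and MAGED2 with 75.5 CPM, belong to a branch of the MAGE family that normal tissues also express. None of the MAGEA, MAGEB or MAGEC genes of the list was listed in the control table, nor were CTAG1B, SSX1, LIN28B and NANOG.

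HOX genes, which set position along the body axis, were expressed in 26 of 39 cases, 15 of them at 5 CPM or more, and none reached 100 CPM. HOXB7 had 35.6 CPM, against 31.9 and 29.8 CPM with PTBP1 siRNA and 35.7 CPM with DNMT3B-L siRNA, HOXB9 30.8 CPM, against 39.98 and 47.96 CPM with PTBP1 siRNA and 37.6 CPM with DNMT3B-L siRNA, HOXC9 19.8 CPM and HOXB6 18.8 CPM. HOXC6 was the least even of those at 10 CPM or more, at 15.5 CPM against 7.39 and 9.67 CPM with PTBP1 siRNA and 11.2 CPM with DNMT3B-L siRNA. Among the posterior genes HOXA13 had 3.02 CPM, against 2.95 and 2.24 CPM with PTBP1 siRNA and 2.73 CPM with DNMT3B-L siRNA, and HOXC13 14.6 CPM, while HOXB13 and HOXD10 to HOXD13 were not listed. Several HOX genes overlap others in the annotation, HOXD4 for 80.46% of its merged exons.

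Of 20 long noncoding RNAs 14 were expressed. The nuclear RNAs MALAT1 and NEAT1 had 166 CPM, against 230.0 and 96.2 CPM with PTBP1 siRNA and 106 CPM with DNMT3B-L siRNA, and 103 CPM, against 222 and 127 CPM with PTBP1 siRNA and 68.2 CPM with DNMT3B-L siRNA. NEAT1 was the least even of the list. GAS5 and SNHG5, hosts of small nucleolar RNAs, had 111 and 110.2 CPM. PVT1 had 26.3 CPM, against 29.6 and 42.2 CPM with PTBP1 siRNA and 34.7 CPM with DNMT3B-L siRNA, HOTAIR 1.33 CPM, against 1.20 and 1.17 CPM with PTBP1 siRNA and 2.42 CPM with DNMT3B-L siRNA, and H19 1.29 CPM. The RNAs known from prostate cancer PCGEM1, SCHLAP1 and PCAT1, and UCA1 of bladder cancer, were not listed.

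**Figure D5:**
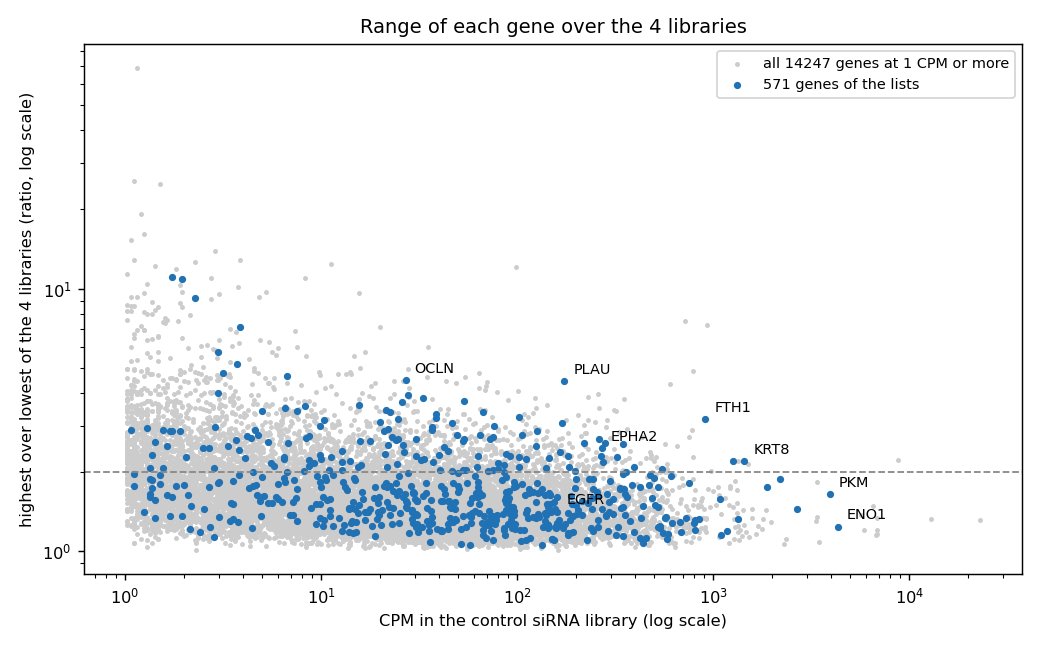
Highest over lowest CPM of the 4 libraries (y axis, log scale) against CPM in the control siRNA library (x axis, log scale), for 14247 expressed genes (grey) and the 571 expressed genes of the lists (blue). The dashed line is a range of 2-fold, which OCLN, PLAU, FTH1, EPHA2 and KRT8 exceeded and ENO1, PKM and EGFR did not.

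How far these levels held was read from the range over the 4 libraries, the highest value over the lowest. Among all 14247 genes expressed in the control siRNA library, 11614 (81.5%) stayed within 2-fold and 18.5% did not, with a median range of 1.49. Of the 571 expressed genes of the lists, 148 had a range of 2-fold or more (25.9%), with a median of 1.60. Low counts widen such ranges, so the lists were also read at 10 CPM or more in the control siRNA library, where 10.7% of all genes reached 2-fold. There, 96 of 449 genes of the lists did (21.4%), of which lineage genes had 21 of 53 (39.6%), surface genes 24 of 87 (27.6%), metabolic genes 21 of 111 (18.9%), genes of expression control 4 of 23 (17.4%) and signalling genes 26 of 175 (14.9%). The simple epithelial list had 10 of 16 and the proteases 8 of 14. At the other end, no member did so among 17 tumour suppressor and mismatch repair genes, 16 antigen presentation genes, 13 glucose and lactate genes and 11 NOTCH and hedgehog genes. Of these, NOTCH3 had a range of 1.999, just under 2-fold. The range of a list also holds the effects of the PTBP1 and DNMT3B-L siRNAs, and their part in it was not tested. The lists were chosen with earlier results of these data known, so their shares only describe the genes chosen.

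The place of the control siRNA library among the 4 was described in the same way, with the same limit on the choice of lists. At 10 CPM or more it was above all 3 others for 93 of 449 genes of the lists (20.7%) and below all 3 for 76 (16.9%), beside 18.2% and 22.7% of all genes. For simple epithelial genes it was above all others in 7 of 16 cases and below in none, and for antigens in 7 of 15 and 3 of 15. For TGF-beta and BMP genes it was above in 1 of 20 and below in 7, and for secreted cytokines and growth factors in none of 10 and below in 4. No rule was set for which lists are named here, and further lists were uneven too. Fatty acid genes had it above in 8 of 22 and below in 2. Genes for glutamine, serine and one-carbon units had it above in 1 of 25 and below in 8.

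A test of the control siRNA library against the other 3 taken as 1 group called no gene. In limma on log2(CPM + 1), 0 of 14942 genes passed an adjusted p under 0.05 in either direction (0.0% higher and 0.0% lower in the control siRNA library), and 274 had an unadjusted p under 0.05. With edgeR and DESeq2 on the recovered read pairs 0 genes passed, and 267 and 233 had an unadjusted p under 0.05. The group of 3 holds libraries with different targets, and its spread includes their differences. Without the DNMT3B-L siRNA library 1 gene passed, PTBP2, a paralog of PTBP1, at 8.26 CPM in the control siRNA library against 60.9 and 70.9 CPM with PTBP1 siRNA and 6.45 CPM with DNMT3B-L siRNA (limma, adjusted p 0.0160). With 1 control siRNA library and a group of mixed targets, a count of 0 says little about single genes, and the differences named above are descriptions of 4 libraries.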

How the data were processed

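RNA was sequenced from DU145 cells given control siRNA (1 library), PTBP1 siRNA (2) or DNMT3B-L siRNA (1). The authors deposited 1 table of CPM per library, made, by the submitters' processing notes, with HISAT2 2.1.0, HTSeq 0.6.1 and bcl2fastq 2.19.1 (hg19, GRCh37). All values (100%) were whole multiples of 1 read (tolerance 0.001), which gave 22332245 to 24088975 read pairs per library. Exact Poisson intervals (95%) cover counting error only. Of the control identifiers, 99.5% matched GENCODE 29, used for lengths, classes and overlaps. Promoters came from RefSeq (GRCh38.p14).

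The members and lists were chosen with earlier results of these data known. Named genes were those marked for description, per list the 4 highest in CPM and the widest range at 10 CPM or more, and the 15 highest overall in CPM and (coding) per kilobase. Others were added after their values were seen, and some genes that the rule names are not reported here. The test was limma 3.58.1 (trend, R 4.3.3) on log2(CPM + 1), which understates changes of low genes. It covered 14942 genes listed in all 4 libraries and at 1 CPM or more in any. It had 2 residual degrees of freedom and Benjamini-Hochberg adjustment. It was also tried on simulated data, where all genes had a common spread estimated from these libraries. The libraries other than the control were drawn there as replicates, and only genes averaging 5 CPM or more were given a change. In the simulation limma recovered 14% of the genes given a log2 change of 1, 90.2% at 2 and 100% at 3. It made 43 false calls over 5 runs. The real libraries have different targets, so these rates do not give the power of the real test. edgeR 4.0.16 and DESeq2 1.42.0 on the recovered read pairs called 0 genes. P-values measure only the spread among the libraries other than the control siRNA library, which may be technical in part. That spread includes differences between their targets and holds no variation between control replicates. Alternatives were other minimums, pseudocounts, scalings, gene lengths and leaving out each other library. A planned protein alignment was not run.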

Additional observations from a re-analysis of the deposited data

How the results depend on the processing

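The count of 14247 expressed genes kept within 1.5 times of itself under every alternative: 15793 at a minimum of 0.5 CPM, 11099 at 5 CPM, 13347 at 1 CPM or more in all 4 libraries and 13495 where the lower Poisson bound had to reach 1 CPM. The 571 expressed genes of the lists became 593, 492, 551 and, at 1 CPM per kilobase, 497. Of 32 lists, the number whose count moved by over 1.5 times was 2 at 0.5 CPM, 2 at 5 CPM, 1 in all 4 libraries and 2 per kilobase. These were the markers of other cell types (2 expressed genes, against 4 at 0.5 CPM, 1 at 5 CPM, 1 in all 4 libraries and 1 per kilobase), the cancer-testis genes (3, against 5 at 0.5 CPM), the HOX genes (26, against 15 at 5 CPM) and the neuroendocrine genes (5, against 2 per kilobase). Without the genes of the mitochondrial genome 2512 genes had 100 CPM or more, against 2301, and with the length of the longest transcript 13 of the 15 highest genes per kilobase were shared. The share of genes within 2-fold was 81.5%, with an exact binomial interval of 80.9% to 82.2%. That interval treats genes as independent and does not cover differences between libraries. The share was 87.6% at a minimum of 5 CPM, 62.4% with no filter and 81.6% with TMM factors. At 10 CPM, an alternative chosen after seeing the data, it was 89.3%. Without 1 of the 3 other libraries it was 88.2% to 88.6%, since fewer libraries give narrower ranges. The test of the control siRNA library called 0 genes under each of 7 alternatives, and 0 to 1 gene over the fits without 1 library. The gene called, PTBP2, passed without DNMT3B-L siRNA. No paired analysis was possible because the control siRNA and the DNMT3B-L siRNA have 1 library each and the labels number only the PTBP1 siRNAs. The comparison of protein sequences that was planned was not run.

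Limits. The control siRNA has 1 library, so its levels have counting error but no replicate error. A read total of 22511596 pairs places 1 CPM at about 22.5 pairs, and values near it are not separable from the limit. Genes that overlap others were not resolved further, since no source used here gives the strand setting of the counting.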

Other observations

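Gene families outside the lists were counted in the control siRNA library after the values of the lists had been seen, from the symbols of protein-coding genes in GENCODE release 29. Beside each family count stands the share over all these protein-coding genes, of which 62.2% were expressed. Of 55 keratin genes 10 were expressed and 41 were not listed. The expressed ones included KRT80, at 208 CPM against 191 and 166 CPM with PTBP1 siRNA and 325 CPM with DNMT3B-L siRNA, and KRT10, at 33.98 CPM against 34.00 and 31.9 CPM with PTBP1 siRNA and 33.2 CPM with DNMT3B-L siRNA. Annexins, which bind membranes in the presence of calcium, were expressed in 10 of 12 cases. ANXA2 had 1411 CPM, against 1604 and 1213 CPM with PTBP1 siRNA and 1120.3 CPM with DNMT3B-L siRNA, and ANXA5 had 619.6 CPM, against 656 and 662 CPM with PTBP1 siRNA and 609 CPM with DNMT3B-L siRNA. Of 19 S100 genes, which encode small calcium-binding proteins, 9 were expressed. S100A10, the partner of ANXA2, had 573 CPM, against 663 and 519 CPM with PTBP1 siRNA and 331 CPM with DNMT3B-L siRNA, and S100A6 had 570.4 CPM, against 627 and 387 CPM with PTBP1 siRNA and 313 CPM with DNMT3B-L siRNA. Galectins were few, 3 of 11, with LGALS1 at 469 CPM against 422 and 261 CPM with PTBP1 siRNA and 332 CPM with DNMT3B-L siRNA. Of 386 olfactory receptor genes none was expressed and 378 were not listed, and the 8 listed under 1 CPM summed to 1.13 CPM.

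Semaphorins and plexins, guidance ligands and their receptors, were expressed in 20 of 29 cases. The ligand SEMA4B had 476 CPM, against 705 and 398 CPM with PTBP1 siRNA and 294 CPM with DNMT3B-L siRNA, and the receptor PLXNB2 had 441 CPM, against 432 and 295 CPM with PTBP1 siRNA and 305 CPM with DNMT3B-L siRNA. Of 24 claudins, the strand proteins of tight junctions, 9 were expressed and none reached 100 CPM. CLDN12 had 46.2 CPM, against 72.6 and 46.97 CPM with PTBP1 siRNA and 30.05 CPM with DNMT3B-L siRNA, and CLDN1 had 28.4 CPM, against 38.98 and 59.8 CPM with PTBP1 siRNA and 49.8 CPM with DNMT3B-L siRNA, where the control value lay below all 3 others. Of 23 cadherin genes 4 were expressed, led in CPM by CDH3 at 42.2 CPM against 35.1 and 24.5 CPM with PTBP1 siRNA and 38.9 CPM with DNMT3B-L siRNA. Of 23 matrix metalloproteinases 6 were expressed, and the highest in CPM were the membrane-bound MMP15 at 101 CPM, against 82.9 and 109.7 CPM with PTBP1 siRNA and 126 CPM with DNMT3B-L siRNA, and MMP14. Of 45 ABC transporters 27 were expressed, and ABCA2, of lysosomal membranes, had 296 CPM, against 269.9 and 249 CPM with PTBP1 siRNA and 175 CPM with DNMT3B-L siRNA. ABCC3, an exporter of conjugates, had 120.3 CPM, against 162 and 137 CPM with PTBP1 siRNA and 48.4 CPM with DNMT3B-L siRNA. Of 38 interleukin genes 8 were expressed. IL32 had 78.2 CPM, against 51.1 and 52.1 CPM with PTBP1 siRNA and 72.2 CPM with DNMT3B-L siRNA, and IL11, a ligand that signals through IL6ST, had 30.8 CPM, against 106 and 61.00 CPM with PTBP1 siRNA and 50.4 CPM with DNMT3B-L siRNA, where the control value was the lowest. Zinc finger genes named ZNF were expressed in 401 of 514 cases, 7 of them at 100 CPM or more.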
